A study of Mus musculus with 6 samples.

Results

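Calcium pumps and store calcium channels set the calcium levels of the cytosol and of the compartments inside the cell, and 10 of their genes were followed here in B16-F3, a mouse melanoma line sorted by pigment content. They were picked by gene name from the count table, by a rule that itself uses no measured value, although earlier results of these data were known by then. They encode plasma membrane pumps (Atp2b1, Atp2b4), an endoplasmic reticulum (ER) pump (Atp2a2), a Golgi pump (Atp2c1), parts of store-operated calcium entry (Stim1, Orai1), the IP3 receptors (Itpr1, Itpr2, Itpr3) and the mitochondrial uptake channel (Mcu). All 10 are rows of the 22740-gene count table, and all 10 were among the 11921 genes whose counts were high enough to test. Cells rich in pigment (HPC, high-pigmented) were separated by cell sorting from cells poor in pigment (LPC, low-pigmented) through the way melanin scatters light, and 3 libraries were made from each group. Both groups came from 1 line, obtained from ATCC and grown in DMEM with fetal bovine serum and antibiotics, and the labels name no allele or agent that sets them apart. Each library holds the RNA of many sorted cells, so a smaller number of cells that express a gene and less of its RNA per cell cannot be told apart.

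Calcium is kept far lower in the cytosol than outside the cell or inside the ER. Pumps of the P-type ATPase family move it out against this gradient, at the plasma membrane, into the ER and into the Golgi. When a receptor triggers production of IP3, the IP3 receptors release calcium from the ER, STIM1 senses the emptied store and opens ORAI1 channels at the surface, and mitochondria take up part of the calcium through MCU. In pigment cells, calcium signals have been linked to melanin synthesis and to the filling and movement of melanosomes.

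Atp2b4 was the one gene of the 10 with a large difference between the groups. Its level was about 3 times lower in HPC than in LPC, a difference that passed in a fit pairing libraries by replicate number and in DESeq2 but not in edgeR without pairing, while the fitted difference of the 9 others was 1.38-fold or less in either direction. Atp2c1 and Mcu had slightly higher levels in HPC, with no overlap between the groups, as had 7.16% of all genes tested. Stim1 had higher levels in HPC in all 3 pairs, and Orai1 and Itpr3 slightly lower ones in all 3 pairs of libraries with the same number. None of these genes passed in edgeR with or without pairing, and the share of all genes with 1 direction over the 3 pairs was not counted. Atp2b1, Atp2a2, Itpr1 and Itpr2 had no common direction over the pairs.

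Total counts ran from 14695822 to 22186743 per library. The pigment cell genes Dct, Tyrp1, Pmel, Mlana, Mitf and Sox10 were present in every library, at 460.1 CPM or more. CPM are counts scaled to a common library size with TMM factors, which correct for composition. Tyr, the tyrosinase gene and a check of the sort, averaged 919 ± 70.3 CPM in HPC against 187 ± 109 in LPC (SD, n = 3 each). Among 12 listed markers of fibroblasts, endothelium and keratinocytes, Kdr, Cdh5, Krt1, Krt5 and Krt14 had 0 counts in every library, as had Ptprc, Cd3e, Itgam and Nkg7 among 12 listed immune markers. The 3 tested members of the first list summed to 19.1 to 28.1 CPM in HPC and 17.5 to 34.1 CPM in LPC. One of them, Pdgfra, was lower in HPC (log2 fold change with the replicate block -1.11, edgeR adjusted p = 0.045). Another, Col1a2, had a value of 0.62, in the opposite direction, outside the threshold (edgeR adjusted p = 0.26). The remaining one, Col1a1, was at -0.29 (edgeR adjusted p = 0.54). The 2 tested immune markers, Cd68 and Lyz2, summed to 8.16 to 15.6 CPM in HPC and 3.78 to 8.77 CPM in LPC. With the block, Cd68 had a log2 fold change of 1.11 (edgeR adjusted p = 0.13) and Lyz2 of 0.17 (edgeR adjusted p = 0.86). Whether these genes had a part in the differences described here was not tested.

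Promoter sequences are shown for both plasma membrane pumps, because one passed the test in the blocked fit and the other did not, and for Itpr3, which held both of the motifs searched. They come from RefSeq on GRCm38.p6 and run from 250 bases before to 50 bases after an annotated start. The table held 10 such windows for 8 of the 10 genes, with Atp2a2 and Itpr1 not matched. Capitals mark CACGTG and CATGTG, the E-box letters known to be bound by MITF and related factors, searched on both strands (CATGTG also as CACATG). The Atp2b4 window lies at chr1:133753698-133753997 on the minus strand, the Atp2b1 window shown at chr10:98914392-98914691 on the plus strand and the Itpr3 window at chr17:27057054-27057353 on the plus strand.
Atp2b4: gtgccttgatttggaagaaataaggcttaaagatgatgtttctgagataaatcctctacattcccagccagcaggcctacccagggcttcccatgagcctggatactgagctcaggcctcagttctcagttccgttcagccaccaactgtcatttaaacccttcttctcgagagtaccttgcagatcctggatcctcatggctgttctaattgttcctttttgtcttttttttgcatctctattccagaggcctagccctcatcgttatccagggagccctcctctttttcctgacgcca
Atp2b1: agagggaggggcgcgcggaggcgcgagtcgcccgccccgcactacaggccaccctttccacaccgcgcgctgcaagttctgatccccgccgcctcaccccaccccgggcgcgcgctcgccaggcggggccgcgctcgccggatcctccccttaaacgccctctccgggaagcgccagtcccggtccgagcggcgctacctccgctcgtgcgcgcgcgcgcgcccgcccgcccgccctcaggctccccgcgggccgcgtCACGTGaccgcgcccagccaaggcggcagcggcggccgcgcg
Itpr3: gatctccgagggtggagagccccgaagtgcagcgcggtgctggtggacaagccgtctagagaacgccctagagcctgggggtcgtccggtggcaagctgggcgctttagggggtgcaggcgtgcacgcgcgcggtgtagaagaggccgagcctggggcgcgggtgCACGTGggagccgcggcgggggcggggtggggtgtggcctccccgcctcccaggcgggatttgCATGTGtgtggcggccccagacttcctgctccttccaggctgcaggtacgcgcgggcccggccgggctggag
The Atp2b4 window had neither motif and a GC content of 47.7%, against 79.3% in the Atp2b1 window, 72.3% in the Itpr3 window and a median of 52.7% over the 32851 promoter windows of the table. Of the 10 windows, 2 held CACGTG, which 7.15% of all windows hold, and 1 held CATGTG, which 14.2% hold. The CACGTG of the Atp2b1 window lies after the annotated start, and a second Atp2b1 window, at chr10:98914902-98915201, holds neither motif. In Itpr3 the CACGTG lay 85 bases and the CATGTG 22 bases before the start. The annotated RefSeq start of Atp2b4 lies 47294 bases inside the GENCODE gene, so this window covers only one of its possible starts. These matches describe letters and not binding.

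Among the pumps, Atp2b4 encodes PMCA4, one of the plasma membrane ATPases that push calcium out of the cell. Its level was 5.11, 4.69 and 8.44 CPM in HPC, against 10.9, 19.1 and 25.8 in LPC (here and in what follows, libraries are given in the order of replicates 1, 2 and 3). Every LPC library was above every HPC library, with LPC replicate 1 nearest to them. The counts behind these levels were 91, 104 and 166 in HPC and 161, 361 and 386 in LPC. The group means were 6.08 ± 2.05 CPM in HPC against 18.6 ± 7.50 in LPC (SD, n = 3 each), a 3.06-fold lower level in HPC. Without a block, edgeR's quasi-likelihood test gave a log2 fold change of -1.61 (SE 0.35) and an adjusted p of 0.19 over all tested genes, so Atp2b4 did not pass the threshold of 0.05. With the replicate number as a block, which compares libraries of the same number, Atp2b4 passed with edgeR at a log2 fold change of -1.59 (SE 0.19, adjusted p = 0.013). DESeq2 without the block also called it (log2 fold change -1.61, adjusted p = 0.00074). The log2 ratio of HPC to LPC was -1.09, -2.02 and -1.61 in the pairs numbered 1, 2 and 3. When the pair numbered 2 was left out of the blocked fit, the edgeR adjusted p was 0.14, at a log2 fold change of -1.37.

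Over all genes, 0.0419% passed with edgeR without the block, 2.52% with the block and 1.74% with DESeq2 without the block. Of the 10 genes, none passed in the first, while Atp2b4 was the single gene called in both others, as lower in HPC. Genes called in that direction made up 1.1% of all genes with the block and 0.806% with DESeq2, and genes called higher made up 1.43% and 0.929%. At an unadjusted p under 0.05, edgeR without the block took 2 of the 10, against 9.37% of all genes, namely Stim1 as higher (5.06%) and Atp2b4 as lower (4.31%). With the block it took 4 of the 10, against 18.8% of all genes, namely Stim1 and Atp2c1 as higher (10.1%) and Atp2b4 and Itpr3 as lower (8.66%).

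Atp2b1 encodes PMCA1, the plasma membrane pump found in nearly all cell types. Its levels were 80.8, 96.1 and 86.8 CPM in HPC against 100.5, 77.3 and 73.7 in LPC. The groups overlapped, and LPC replicate 1 had the highest level of all. Its log2 fold change was 0.07 (SE 0.14, 95% interval -0.26 to 0.40, edgeR adjusted p = 0.94), and it turned negative without LPC replicate 3.

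Atp2b2 and Atp2b3, the other plasma membrane pump genes, had 0 counts in every library, which allows at most 0.134% to 0.202% of the family's reads for either (3 counts). Atp2b4 and Atp2b1 therefore made up all counted reads of the family. Reads come from transcript 3′ ends, so these shares were not divided by length. The share of Atp2b4 was 5.94% (95% Wilson interval 4.87 to 7.24), 4.66% (3.86 to 5.61) and 8.86% (7.66 to 10.2) in the HPC libraries. In the LPC libraries it was 9.76% (8.42 to 11.3), 19.8% (18 to 21.7) and 26.0% (23.8 to 28.2). The HPC shares all lay below the LPC shares, although the intervals of HPC replicate 3 and LPC replicate 1 overlapped. These intervals cover counting error only. The summed level of both genes was 94.0 ± 7.48 CPM in HPC against 102 ± 7.88 in LPC (SD, n = 3 each), with overlapping libraries, so the groups stood apart in the make-up of the pair and not in its sum.

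Atp2a2 encodes SERCA2, which refills the ER with calcium. It was at 351, 430 and 356 CPM in HPC against 395, 347 and 328 in LPC, and the groups overlapped. The log2 fold change was 0.09 (SE 0.13, 95% interval -0.21 to 0.38, edgeR adjusted p = 0.89), and it turned negative without HPC replicate 2. Atp2a2 took 99.6% to 99.9% of the reads of the 3 ER pump genes in every library, with Atp2a1 and Atp2a3 at no more than 15 counts each.

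Atp2c1 encodes SPCA1, which loads calcium and manganese into the Golgi. It was at 92.4, 91.1 and 104.7 CPM in HPC against 80.1, 76.7 and 88.0 in LPC. Each HPC library was above each LPC library, by a small margin. The log2 ratios of the pairs were 0.21, 0.25 and 0.25, and the fitted difference was 0.24 (SE 0.11, edgeR adjusted p = 0.58). With the block it was 0.23 (SE 0.09, 95% interval 0.03 to 0.44, edgeR adjusted p = 0.21), a 1.18-fold higher level that did not pass. Aste1 lies on the opposite strand over the 3′ end of Atp2c1, and no source used here says whether counting used strand, so reads of the 2 genes cannot be told apart.

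**Figure D1:**
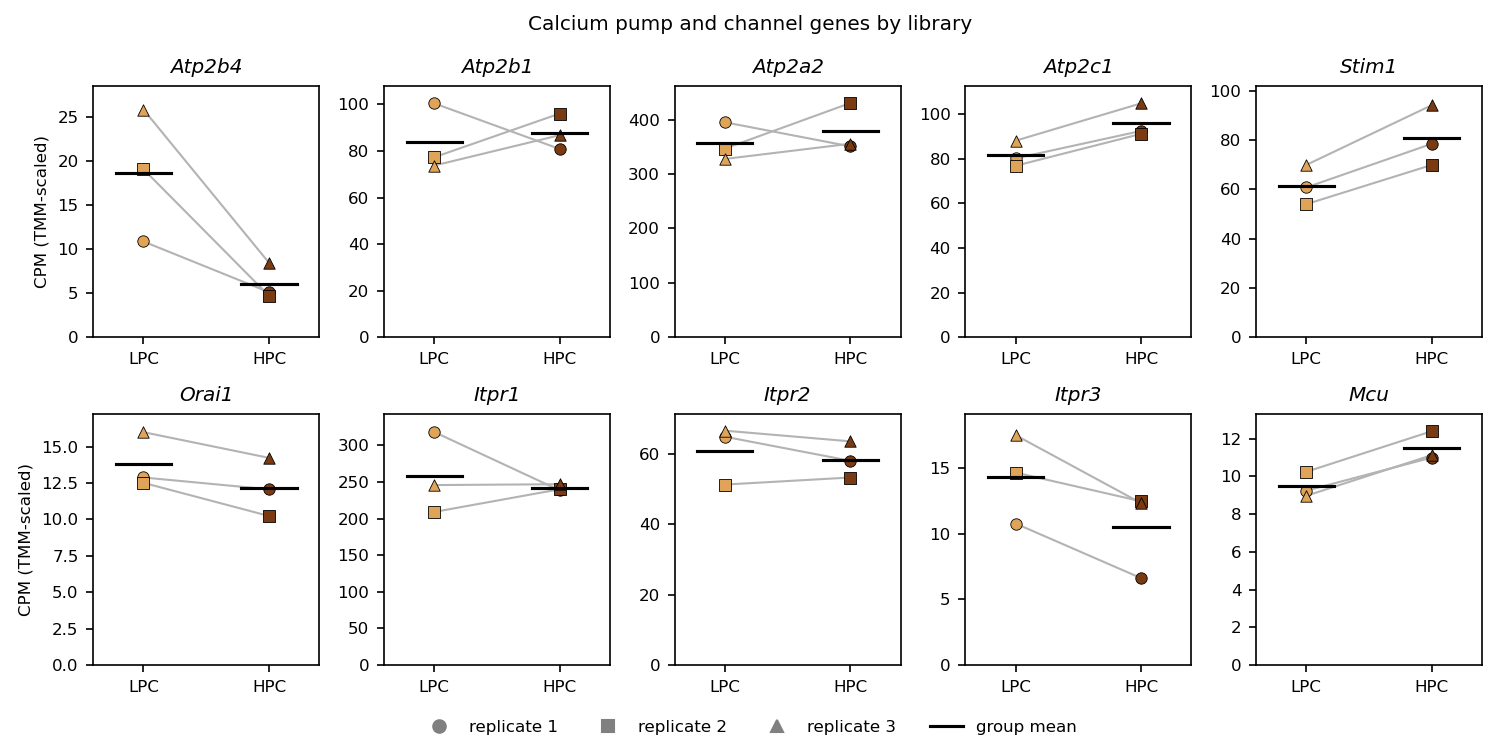
Levels of the 10 genes in each library, in TMM-scaled CPM (linear axes from 0), with LPC left and HPC right, marker shape for the replicate number, grey lines joining equal numbers and black bars for group means. Atp2b4 averages 18.6 CPM in LPC and 6.08 CPM in HPC. Stim1, Atp2c1 and Mcu slope upwards in all 3 pairs, and the lines of Atp2b1, Atp2a2, Itpr1 and Itpr2 do not all slope the same way.

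In store-operated entry, Stim1 encodes the ER calcium sensor. It was at 78.4, 69.9 and 94.1 CPM in HPC against 60.7, 53.9 and 69.8 in LPC. The lowest HPC library and the highest LPC library stood almost level, and scaled by library size alone these groups overlapped. Within pairs the difference was even, with log2 ratios of 0.37, 0.37 and 0.43. The fitted difference was 0.39 (SE 0.15, edgeR adjusted p = 0.48), and with the block 0.39 (SE 0.09, 95% interval 0.19 to 0.60, edgeR adjusted p = 0.071), a 1.31-fold higher level just outside the threshold. Stim2, the related sensor gene, took 38.4% or less of the reads of the 2 genes in HPC and 39.2% or more in LPC.

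Orai1 encodes the surface channel that STIM1 opens. It was at 12.1, 10.2 and 14.2 CPM in HPC against 12.9, 12.5 and 16 in LPC. The groups overlapped, and the log2 ratios of the pairs were -0.09, -0.29 and -0.17. The fitted difference was -0.18 (SE 0.19, 95% interval -0.61 to 0.25, edgeR adjusted p = 0.83) and did not pass with the block either (edgeR adjusted p = 0.49). It was -0.06 without LPC replicate 3, -0.07 without HPC replicate 2 and -0.31 without HPC replicate 3. Among the reads of the ORAI genes, Orai1 took 13% ± 1.62 in HPC and 16.3% ± 2.03 in LPC, Orai2 24.5% ± 1.16 and 20.5% ± 1.88, and Orai3 62.5% ± 2.05 and 63.2% ± 3.84 (SD, n = 3 each).

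The fitted values of Stim1 and Orai1 had opposite signs, although neither gene passed the test, and the ratio of their reads did not overlap between the groups. A library held 6.5, 6.82 and 6.61 Stim1 reads per Orai1 read in HPC, against 4.71, 4.31 and 4.36 in LPC. The means were 6.64 ± 0.17 and 4.46 ± 0.22 (SD, n = 3 each), and the ratio was 1.49 times as high in HPC. This ratio was chosen after the values were seen, so it is given as a description with no test. How many other gene pairs have ratios that separate the groups was not counted. The ratio concerns Orai1 alone, which held the smallest share of the ORAI reads. The summed level of the ORAI genes overlapped between the groups, at 93.7 ± 10.3 CPM in HPC against 85.5 ± 14.9 in LPC (SD, n = 3 each). The Stim1 to Orai1 ratio does not depend on the scaling of the libraries, since both genes are read in the same library.

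Of the IP3 receptors, Itpr1 encodes the type 1 channel. It was at 239, 240 and 247 CPM in HPC, a narrow range, against 318, 209 and 246 in LPC. The LPC libraries lay on both sides of the HPC libraries, with LPC replicate 1 the highest. The log2 fold change was -0.09 (SE 0.16, 95% interval -0.45 to 0.27, edgeR adjusted p = 0.91), and it turned positive without LPC replicate 1.

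Itpr2 encodes the type 2 channel. It was at 58.1, 53.4 and 63.6 CPM in HPC against 65.0, 51.3 and 66.7 in LPC. The groups overlapped, and the difference was -0.06 on the log2 scale (SE 0.13, 95% interval -0.37 to 0.25, edgeR adjusted p = 0.94).

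Itpr3, the type 3 channel gene, was at 6.62, 12.5 and 12.4 CPM in HPC against 10.8, 14.7 and 17.5 in LPC. In each pair the HPC library was lower, with log2 ratios of -0.70, -0.23 and -0.51, but the groups overlapped. The log2 fold change was -0.45 (SE 0.28, edgeR adjusted p = 0.70), and -0.47 with the block (SE 0.15, 95% interval -0.81 to -0.13, edgeR adjusted p = 0.16). Leaving out HPC replicate 1, the lowest library, moved the unblocked value to -0.20. Mitochondrial transcripts took 3.21% of the counts in that library and 2.07% to 2.56% in the others, and the part of this in the result was not tested. Itpr3os, an antisense gene, overlaps Itpr3 on the opposite strand, though not over its last 2000 bases.

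In the IP3 receptor family, Itpr1 took 77.9% ± 1.21 of the family's reads in HPC and 77.1% ± 3.29 in LPC, Itpr2 18.8% ± 1.18 and 18.5% ± 1.87, and Itpr3 3.36% ± 1.03 and 4.46% ± 1.49 (SD, n = 3 each). Each difference between these means was smaller than the larger SD of its 2 groups. Within pairs, the Itpr3 share was lower in HPC each time, at 2.18%, 4.08% and 3.82% in HPC against 2.74%, 5.34% and 5.32% in LPC, and no test was made of it. The difference in means of -1.10 percentage points became -0.51 without HPC replicate 1 and -1.96 without LPC replicate 1.

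**Figure D2:**
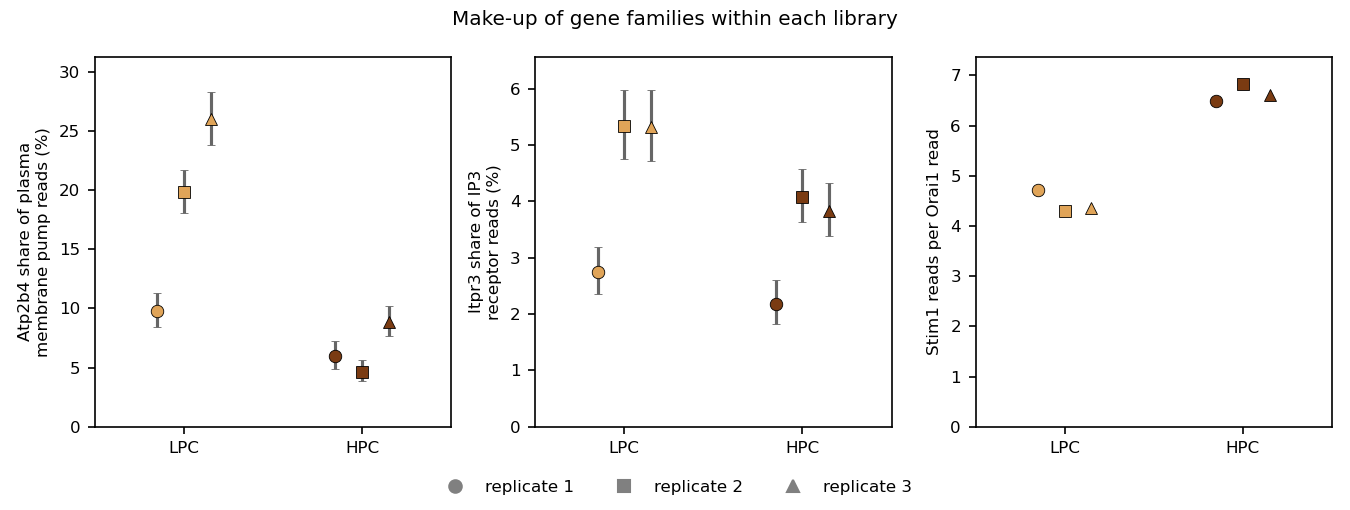
Share of Atp2b4 among plasma membrane pump reads (%), share of Itpr3 among IP3 receptor reads (%), and Stim1 reads per Orai1 read, 1 point per library with marker shape for the replicate number and, for the shares, bars for 95% Wilson intervals. The Atp2b4 shares of HPC end at 8.86% and those of LPC begin at 9.76%, the Itpr3 shares overlap, and the Stim1 to Orai1 ratio is 6.5 or more in HPC and 4.71 or less in LPC.

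Mcu encodes the pore of the mitochondrial calcium uniporter. It was at 11, 12.4 and 11.1 CPM in HPC against 9.24, 10.2 and 8.97 in LPC, so the groups did not overlap. The log2 ratios of the pairs were 0.25, 0.28 and 0.31. The fitted difference was 0.28 (SE 0.16, 95% interval -0.09 to 0.65, edgeR adjusted p = 0.68), and with the block the edgeR adjusted p was 0.32.

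In all, 4 of the 10 genes had groups that did not overlap, against 14.3% of all genes tested. Stim1, Atp2c1 and Mcu were higher in HPC (7.16% of all genes) and Atp2b4 was lower (7.18% of all genes). By library size alone Stim1 overlapped, which left 3 of the 10, against 14.5% of all genes. The median log2 fold change of the 10 genes was 0.003, beside -0.009 over all tested genes, and 5 of the 10 were positive.

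**Figure D3:**
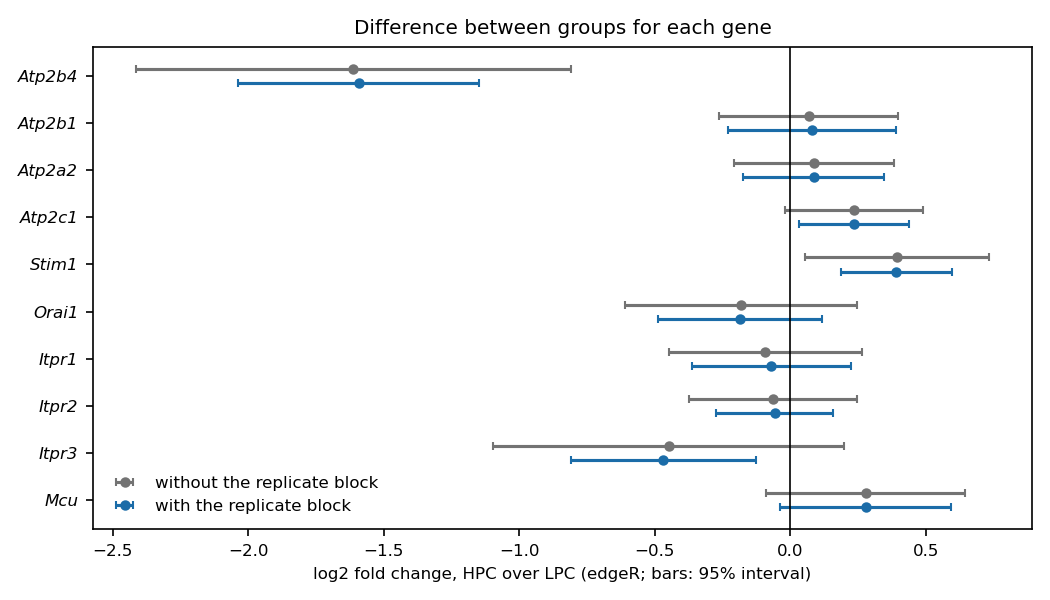
Log2 fold change of HPC over LPC for each of the 10 genes from edgeR, without (grey) and with (blue) the replicate block, with bars for 95% intervals. Atp2b4 lies near -1.6 in both fits, Stim1 stays above 0 in both, and the intervals of Atp2b1, Atp2a2, Orai1, Itpr1, Itpr2 and Mcu include 0 in both.

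Counts of 124 other tested genes of calcium handling, in 8 lists, put the 10 genes in context. Without the block edgeR called none of the 124. At an unadjusted p under 0.05 it took 10 of the 124 as higher and 4 as lower in HPC, beside 5.06% and 4.31% of all genes. DESeq2 without the block called 4, all higher, beside 0.929% of all genes called higher. With the block edgeR called 6 higher (4.84%, beside 1.43% of all genes) and none lower (beside 1.1%). At an unadjusted p under 0.05 it took 15 of the 124 as higher and 9 as lower, beside 10.1% and 8.66% of all genes. DESeq2 and limma-voom with the block also called 6 higher and none lower. Over the whole table they called 308 and 166 genes higher and 180 and 132 lower. Atp2b4 was the single gene called lower in HPC at an adjusted p under 0.05 among the 134 calcium genes in the blocked edgeR fit. That was 0.746% of the 134, beside 1.1% of all genes. In the same fit, 68 of the 134 had a positive log2 fold change. When the pair numbered 1 was left out of that fit, which leaves 1 residual degree of freedom, 13 of the 124 were called higher and 13 lower. Over the whole table, 2947 genes were then called, 1654 higher and 1293 lower. Without the block, the median log2 fold change of the 124 was -0.0028, and 62 were positive. With the block and all libraries, the median was 0.0024, and 63 were positive.

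The list of plasma membrane and endolysosomal channels held 3 of the 6, out of 18 tested. Trpm1, a melanocyte cation channel gene, was at 215, 413 and 407 CPM in HPC against 32.7, 66.4 and 141 in LPC, a 4.87-fold difference in the blocked fit (edgeR adjusted p = 0.0077). Mcoln3, an endolysosomal channel gene, was at 147, 97.1 and 107 CPM in HPC against 70.4, 64.1 and 73.5 in LPC, a 1.67-fold difference in the blocked fit (edgeR adjusted p = 0.029). Piezo1, a mechanically gated channel gene, was at 487 ± 57.5 CPM in HPC against 349 ± 32.1 in LPC (SD, n = 3 each), a 1.39-fold difference in the blocked fit (edgeR adjusted p = 0.041). All 3 had groups that did not overlap, but they were named here because they were called. Among the 124 genes, 7 had groups that did not overlap with HPC higher and 10 with HPC lower, beside 7.16% and 7.18% of all genes.

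Among 26 tested genes of IP3 production and receptor partners, the blocked fit called Plch1 and Ahcyl2, both higher in HPC. Plch1, a phospholipase C gene, was at 15.2 ± 2.9 CPM in HPC against 7.99 ± 1.14 in LPC (SD, n = 3 each), a 1.90-fold higher level (edgeR adjusted p = 0.046). Ahcyl2, whose product resembles the IP3 receptor regulator IRBIT, was at 188 ± 28.6 and 130 ± 29.1 CPM, 1.45-fold higher (edgeR adjusted p = 0.042). The list of sodium-calcium exchangers had 2 tested genes. Slc24a4 was at 15.2, 54.3 and 36.2 CPM in HPC against 9.65, 22.6 and 19.4 in LPC, 1.95-fold higher with the block although the groups overlapped (edgeR adjusted p = 0.024). Slc24a5, the melanosomal exchanger gene, was at 1004 ± 59.8 and 837 ± 88.4 CPM, a difference outside the threshold (adjusted p from edgeR with the block 0.25).

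The remaining lists had no called gene with or without the block. These were 4 tested pump genes and partners, 10 of store-operated entry, 16 of mitochondrial calcium, 20 ER and Golgi buffers and leak genes, and 28 of calmodulin, calcineurin and NFAT. Tmem165, a Golgi calcium and manganese transporter gene, was at 59.8 ± 3.51 CPM in HPC against 68.4 ± 5.31 in LPC (edgeR adjusted p with the block 0.32), and Nptn, a plasma membrane pump partner gene, at 145 ± 9.93 and 154 ± 6.39 CPM. Orai2 was at 23.1 ± 3.57 and 17.4 ± 1.88 CPM (edgeR adjusted p with the block 0.19), and Efcab4a, a gene of the CRAC channel regulator family, at 14.9 ± 3.76 and 19.2 ± 3.64 CPM. Mcur1, a uniporter regulator gene, was at 27.2 ± 2.27 and 32.3 ± 2.41 CPM, the reverse order to Mcu (edgeR adjusted p with the block 0.24). Vdac2, an outer mitochondrial membrane channel gene, was at 173 ± 14.1 and 195 ± 13.8 CPM. The ER chaperone genes Rcn1 and Pdia3 were at 80.8 ± 4.12 and 637 ± 88.8 CPM in HPC and 100.2 ± 7.25 and 751 ± 59.0 CPM in LPC. Nfatc2, a calcineurin-driven transcription factor gene, was at 139 ± 12 and 114 ± 13.6 CPM, and Camk1, a calmodulin kinase gene, at 87.0 ± 4.87 and 104.3 ± 4.4 CPM (all SD, n = 3 each).

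**Figure D4:**
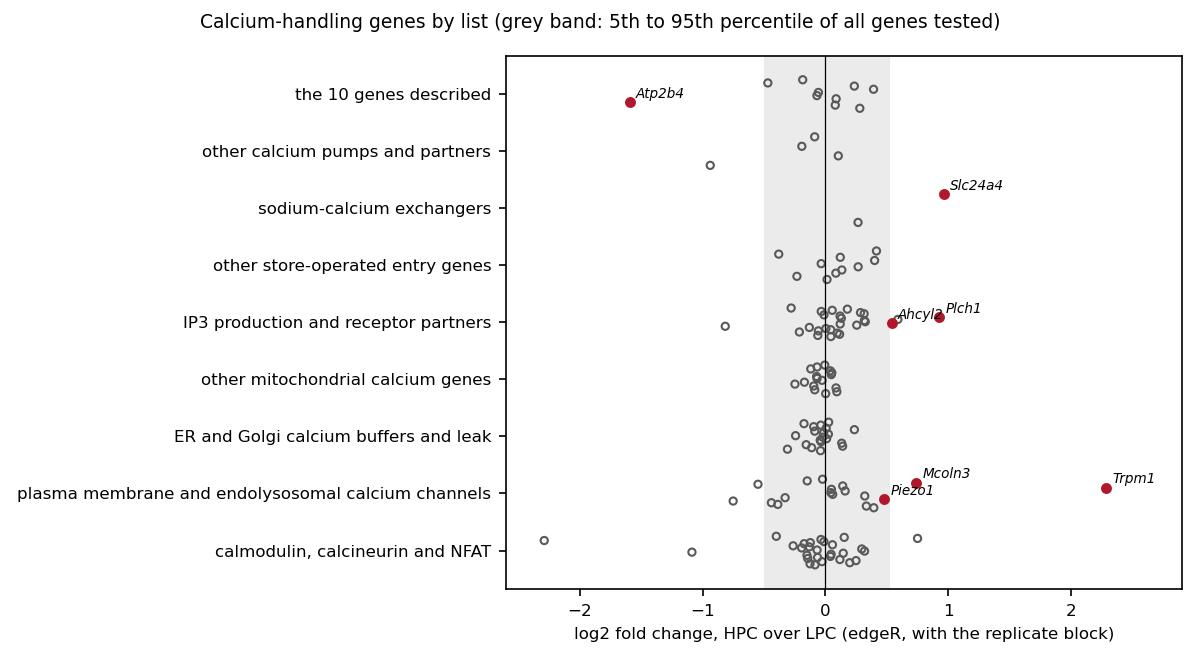
Log2 fold change of HPC over LPC (edgeR with the replicate block) for the 10 genes and for 8 lists of other calcium genes, 1 point per tested gene, filled red where the adjusted p is under 0.05, with the grey band spanning the 5th to 95th percentile of all tested genes (-0.49 to 0.52). Atp2b4 is the single red point left of 0, and 6 red points lie to the right, from Piezo1 to Trpm1.

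The pattern of Atp2b4 over the 6 libraries was shared by many genes. By Pearson correlation of log2 CPM, the 5 most alike of 10194 genes with a mean of at least 5 CPM were Pomgnt1, Foxo4, Lrrc61, Rtn4rl1 and Dok7, each with r of 0.99. With only 6 libraries in 2 groups, 171 genes exceeded r of 0.9, so the order among them says little. Rtn4rl1 was at 2.41, 2.57 and 3.56 CPM in HPC against 4.66, 7.08 and 11.2 in LPC, and Dok7 at 4.60, 4.87 and 7.73 and at 8.23, 11.1 and 14.9 CPM. Pomgnt1, the most alike, had a narrower range, at 108, 104.8 and 117 CPM in HPC against 123, 143 and 147 in LPC. Since likeness to Atp2b4 over these same libraries chose the 5 genes, no test between the groups is given for them.

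Coordinates of the genes are those of GENCODE M21 on GRCm38. Atp2b4 (ENSMUSG00000026463) spans chr1:133699457-133801041 on the minus strand, with Mir6903 and Gm37368 inside it on its own strand, neither over its last 2000 bases. Stim1 (ENSMUSG00000030987) spans chr7:102267806-102437319 and Itpr3 (ENSMUSG00000042644) chr17:27057304-27122223, both on the plus strand. Atp2c1 (ENSMUSG00000032570) spans chr9:105403539-105527319 and Mcu (ENSMUSG00000009647) chr10:59446984-59616692, both on the minus strand. Atp2b1 (ENSMUSG00000019943) lies at chr10:98914406-99026143, Orai1 (ENSMUSG00000049686) at chr5:123015074-123030456 and Itpr1 (ENSMUSG00000030102) at chr6:108213096-108551109, all on the plus strand. Atp2a2 (ENSMUSG00000029467) lies at chr5:122453513-122502225 and Itpr2 (ENSMUSG00000030287) at chr6:146108299-146502223, both on the minus strand. Of the 10 genes, Atp2c1 was the only one with another annotated gene over its last 2000 bases.

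**Figure D5:**
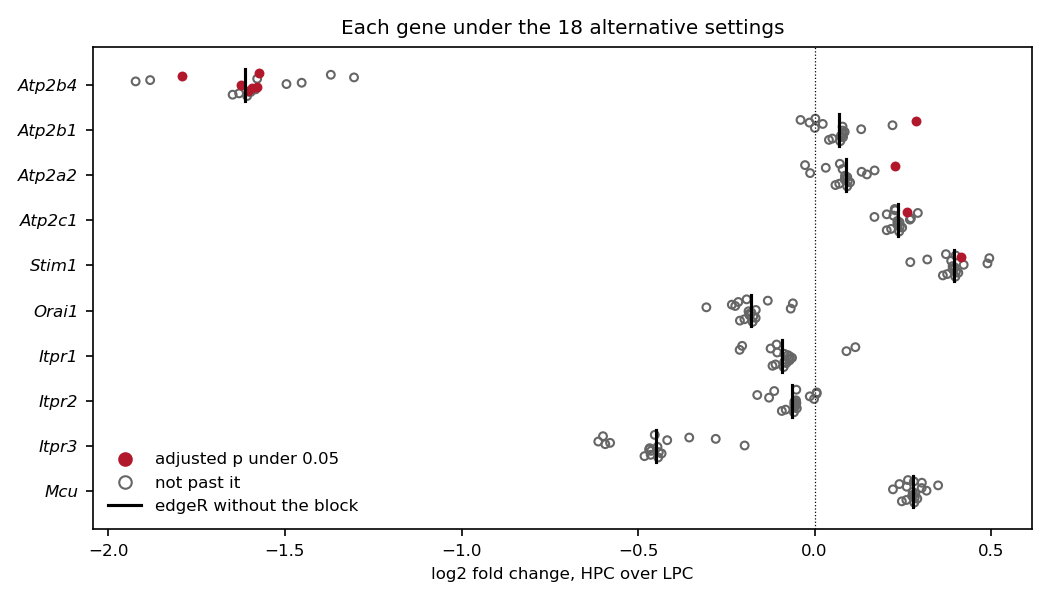
Log2 fold change of HPC over LPC for each of the 10 genes under 18 alternative settings (other scalings, filters, tests, the replicate block, and libraries or pairs left out), red where the adjusted p was under 0.05, with a black bar for edgeR without the block. Atp2b4 stays between -1.92 and -1.30, while the points of Atp2b1, Atp2a2, Itpr1 and Itpr2 lie on both sides of 0.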

How the data were processed

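QuantSeq 3′ mRNA-Seq FWD libraries, which read transcript 3′ ends, were made from total RNA of sorted B16-F3 cells (3 HPC and 3 LPC libraries) and sequenced on a NextSeq 500, per the labels' protocols. STAR is the aligner and GRCm38 the build named in the submitters' processing notes. Counting program, annotation, strand setting and any molecular identifiers are named in no source used here. What the authors deposited are raw, whole-number read counts for each gene, with no normalization. Nothing in the labels ties the replicates to separate cultures or sorts. The p-values therefore measure the spread among these 6 libraries alone, which may be technical.

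Of 22740 genes, filterByExpr kept 11921. The test was edgeR 4.0.16's quasi-likelihood F-test in R 4.3.3 on TMM-scaled counts (group as the only term, 4 residual degrees of freedom), with Benjamini-Hochberg adjustment over all tested genes and a threshold of 0.05. SEs were derived from the F statistic, and 95% intervals from its degrees of freedom. Log2 fold changes are HPC over LPC. Alternatives were RLE, upper-quartile and no composition scaling, no filter, DESeq2 1.42.0 (on all genes, with its own filtering), limma-voom (limma 3.58.1), the replicate block, and libraries or pairs left out. DESeq2 and limma-voom with the block were added after the data were seen, as was the overlap of groups by library size alone. The groups share replicate numbers in the labels. Deviations from the group means correlated at 0.42, 0.35 and 0.65 for numbers 1, 2 and 3, all above the minimum of 0.1, so blocked values are given where they bear on a call. Among unequal numbers, HPC replicate 2 with LPC replicate 1 was also above that minimum, at 0.20, and the others ran from -0.59 to -0.05. The labels themselves state no shared sort or day.

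The 10 genes, the calcium lists and the tests were chosen with earlier results of these data known. Named genes outside the 10 are those called with or without the block, plus in each list the 2 with the smallest blocked p among genes with a mean of at least 5 CPM. The tests were tried on simulated data first.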

Additional observations from a re-analysis of the deposited data

How the results depend on the processing

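Atp2b4 was lower in HPC under all 18 alternatives (log2 fold change -1.92 to -1.30) and Stim1, Atp2c1 and Mcu were higher under all 18, but the adjusted p of Atp2b4 ran from 5.5e-27 to 0.75 and passed in 6 of them, so its call depends on the block or on DESeq2. Of the 10 genes, 1 passed with DESeq2, with the replicate block, and with the block in DESeq2 or limma-voom, none under the other scalings, no filter, limma-voom or any single library left out, and 0 to 5 with the block and 1 pair left out. Those last fits left 1 residual degree of freedom, and the 5, without the pair numbered 1 (Atp2b4, Stim1, Atp2c1, Atp2b1 and Atp2a2), stood among 2947 genes called. Genes called over the whole table were 5 without the block, 28 with no filter, 226 with DESeq2, 301 with the replicate block, 488 and 298 with the block in DESeq2 and limma-voom, 0 to 43 with 1 library left out, and with the block and 1 pair left out 2947, 0 and 196 for pairs 1, 2 and 3. Of the other calcium genes, 4 passed with DESeq2, 6 with the block in edgeR, DESeq2 or limma-voom, 0 to 1 with 1 library left out, and 0 to 26 with the block and 1 pair left out (26 with pair 1 omitted, 13 higher and 13 lower, and 4 with pair 3 omitted). Signs reversed for Atp2b1 without LPC replicate 3 (-0.015) and with the block without the pair numbered 2 (-0.040), for Atp2a2 without HPC replicate 2 (-0.013) and with the block without that pair (-0.027), for Itpr1 without LPC replicate 1 (0.090) and with the block without the pair numbered 1 (0.12), and for Itpr2 without LPC replicate 3 and with the block without the pair numbered 1 (0.0059 in both). With 1 library or pair left out, values ran from -0.040 to 0.29 for Atp2b1, -0.027 to 0.23 for Atp2a2, -0.21 to 0.12 for Itpr1, -0.16 to 0.0059 for Itpr2, -0.31 to -0.062 for Orai1, -0.61 to -0.20 for Itpr3, 0.27 to 0.49 for Stim1, 0.17 to 0.29 for Atp2c1 and 0.22 to 0.35 for Mcu; without LPC replicate 1 they were 0.22 for Atp2b1 and 0.17 for Atp2a2. The causes were not tested. The difference in Atp2b4 share (HPC minus LPC) stayed between -16.4 and -8.29 percentage points, and the Stim1 to Orai1 ratio 1.46 to 1.53 times as high, whichever library was left out. The Itpr3 share difference ran from -1.96 to -0.51 points. Counts per library were 91 to 386 for Atp2b4 and 118 to 278 for Itpr3, and no depth limit was tested for them.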

Other observations

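A few weakly expressed calcium genes had larger differences than most named above and were picked out after their values were seen, for a log2 difference beyond 0.9 with the block. Camk1d, a calmodulin-dependent kinase gene, was at 0.22, 0.14 and 0.051 CPM in HPC replicates 1 to 3, against 0.74, 0.58 and 0.74 in LPC. Its counts were only 4, 3 and 1 in HPC and 11 in each LPC library. The groups did not overlap, as for 7.18% of all genes tested with HPC lower. The fitted log2 fold change of Camk1d with the block was -2.29 (SE 0.59, edgeR adjusted p = 0.098), so it did not pass. Atp2a3, the SERCA3 gene, averaged 0.37 ± 0.16 CPM in HPC against 0.72 ± 0.31 in LPC, and Nfatc4, an NFAT transcription factor gene, at 0.32 ± 0.25 and 0.66 ± 0.46 CPM (SD, n = 3 each). Both overlapped between the groups and did not pass with the block (edgeR adjusted p = 0.40 and 0.33).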
